A study of Mus musculus with 6 samples.

Results

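The genes described here are regulators and markers of the compartments into which a somite divides: the dermomyotome, the skeletal muscle lineage, the sclerotome with its cartilage and tendon derivatives, and a set of mesenchymal transcription factors. They were chosen by name, as every probe set that the array annotation assigns to exactly 1 of the 32 symbols, and the log2 ratios of a gene's probe sets were averaged. All 32 genes were measured, by 43 probe sets, among 12393 genes in all. The older symbol Bapx1 belongs to Nkx3-2 and was counted once.

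The mutant embryos, labelled Dll3neo/neo, were homozygous for the Dll3 tm1Rbe (neo) allele on C57BL/6, and the control embryos were C57BL/6 wild type (WT). Both were collected at 9.5 days post coitum (dpc), each genotype as 3 biological replicate pools with 1 Affymetrix MOE430A array per pool, and the sources used here do not give the pool sizes. The embryos were cut where the presomitic mesoderm meets the youngest somite, with the allantois removed, and the tail piece was kept. That piece held derivatives of all 3 germ layers, so neural tube, gut, surface and vascular cells were sampled along with the unsegmented mesoderm, and formed somites lay on the other side of the cut.

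Somites bud from the anterior end of the presomitic mesoderm and then split. The dorsal part stays epithelial as the dermomyotome, which expresses Pax3 and supplies dermis and muscle precursors; muscle cells arise under control of the 4 myogenic basic helix-loop-helix factors. The ventral part loses its epithelial form under Hedgehog signals from the notochord and floor plate and becomes the sclerotome, the source of vertebrae and ribs, marked by Pax1 and Pax9. Dll3, an atypical Notch ligand made in the presomitic mesoderm, is needed for regular somite boundaries, and the comparison of genotypes asks here how much RNA of later somite programmes the dissected tissue carried in mutant and WT pools.

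The deposited signal of a probe set is relative to the median of that probe set across the 6 arrays, which ranks pools for 1 gene and says nothing about whether that gene was expressed. The labelled tissue could therefore not be checked by the presence or absence of its markers. In 1640 of 22626 probe sets, or 7.25%, the median lies below 1, where a floor seems to stand in for it. The 5 member probe sets of this kind belong to Myf5, En1, Pax9, Sox6 and Scx. Myf5, En1 and Scx have no other probe set, and that of Scx had a median of 0.951. The median of Myf5 was 0.5625, with 180 of the 22626 probe sets lower, and that of En1 was 0.7155, with 671 lower. If 1 floor was used for the whole table, these values place Myf5 and En1 among its dimmest probe sets; whether 1 floor was used is not known. Dll3 itself had ratios of 0.480, 0.476 and 0.537 in mutant pools 1, 2 and 3 and 1.46, 1.63 and 2.01 in WT pools 1, 2 and 3, and was the 1 gene of 12393 past the threshold (limma log2 difference -1.76, adjusted p = 0.00133). Whether its probe set reads the altered part of the transcript is not known here. The 1 call is 0.00807% of genes called, with 159 genes, or 1.28%, at an unadjusted p under 0.05.

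None of the dermomyotome, myogenic, sclerotome or mesenchymal genes passed the test of genotype. Of the 32 members 0 passed limma over all genes with Benjamini-Hochberg adjustment (lowest adjusted p = 0.99998), and 0 reached an unadjusted p under 0.05. A fit on probe sets, which called 0.00442% of them, called 0 of the 43 member probe sets. By sign 17 were higher and 15 lower in the mutant, 53.1% higher, next to 51.1% of all genes. The median log2 difference, mutant minus WT, was 0.0024 for the members and 0.0028 for all genes. The differences ran from -0.15 to 0.27, and 22 of 32, or 68.75%, were smaller than 0.1 in size, next to 68.6% of all genes.

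A missed threshold does not show that levels were equal, and the 95% intervals give what remains possible for each gene. The interval lay within a 1.5-fold change in either direction for 31 of 32 members, next to 96.1% of all genes, and within a 2-fold change for all 32. The exception at 1.5-fold was Twist1, with an upper bound of 0.59 on the log2 scale. These intervals are per gene, unadjusted, and hold for the deposited ratios, whose scale relative to RNA amount is not known for dim probe sets. In tissue pools, fewer cells of a type and less RNA per cell cannot be told apart.

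**Figure D1:**
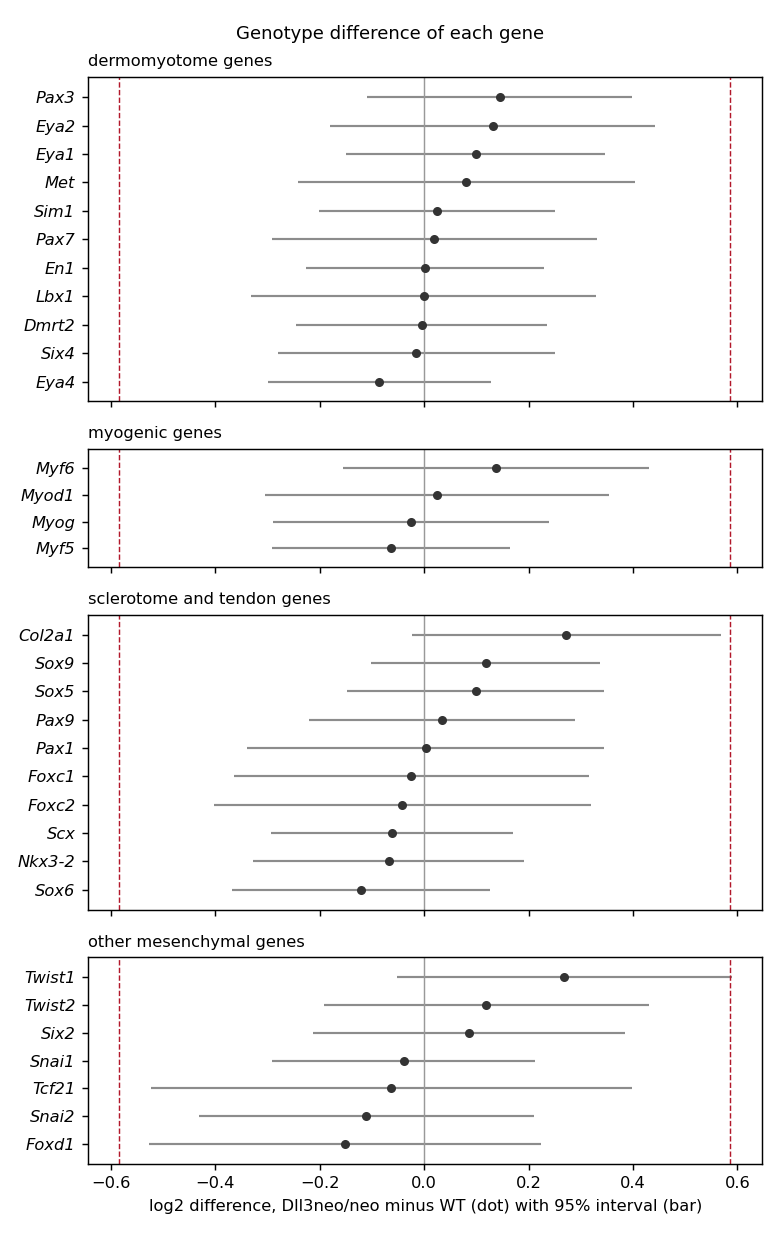
Log2 difference between genotypes, Dll3neo/neo minus WT, for the 32 genes in 4 groups (dots, 3 pools per genotype), with limma 95% intervals (bars); dashed lines mark a 1.5-fold change in either direction. Every interval includes 0, and only that of Twist1 crosses a dashed line.

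The pools of the genotypes did not overlap for 2 members, 1 in each direction. Over all genes the share was 4.95%, with 3.11% higher and 1.84% lower in the mutant. Sox9, which directs cartilage formation and is also made in the neural crest and neural tube, had ratios of 1.13, 1.01 and 1.02 in mutant pools 1, 2 and 3 and 0.981, 0.965 and 0.972 in WT pools 1, 2 and 3. Its log2 difference was 0.12 (SE 0.10), and each of its 2 probe sets taken alone overlapped between genotypes. Without mutant pool 1, where heart muscle genes were high, the difference was 0.07. Eya4, a transcriptional coactivator that partners Six4 and its relatives, had 0.984, 0.998 and 0.935 in the mutant and 1.03, 1.06 and 1.002 in WT, a log2 difference of -0.09 (SE 0.10). The gap between the nearest mutant and WT pools was narrow in both genes.

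Among the 11 dermomyotome genes 7 were higher by sign in the mutant and 4 lower, with a median log2 difference of 0.02. Pax3, the paired-box factor of the dermomyotome and of the dorsal neural tube, had ratios of 0.968, 1.23 and 1.08 in mutant pools 1, 2 and 3. In WT pools 1, 2 and 3 it had 0.962, 0.975 and 1.02. Mutant pool 2 was the highest, mutant pool 1 lay inside the WT range, and the log2 difference was 0.14 (SE 0.11, 95% interval -0.11 to 0.40). It was 0.05 without mutant pool 2. Its 2 probe sets differed in size: 1430335_a_at gave 0.27 and 1420389_at gave 0.02.

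Pax7, the paralogue of Pax3 that marks the central dermomyotome and later muscle stem cells, had 0.999, 1.03 and 0.827 in the mutant and 1.04, 1.001 and 0.780 in WT. Pool 3 was low in both genotypes, and the log2 difference was 0.02 (SE 0.14). Eya2, a coactivator of the same family, had 0.973, 1.10 and 1.03 in the mutant and 1.15, 0.929 and 0.787 in WT. The WT pools spanned the mutant ones, so the log2 difference of 0.13 (SE 0.14) lay within their spread, and it was 0.0009 without WT pool 3. Eya1, a coactivator needed for early muscle development, had 1.05, 0.971 and 1.03 in the mutant and 0.967, 1.05 and 0.846 in WT, a log2 difference of 0.10 (SE 0.11) that was 0.01 without WT pool 3. Six4, the DNA-binding partner in this network, had a log2 difference of -0.01 (SE 0.12) over 2 probe sets of opposite sign.

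Met and Lbx1, genes of muscle precursors that leave the dermomyotome for the limb, were both low in WT pool 3. Met, the receptor for hepatocyte growth factor that releases these cells, had 1.03, 0.964 and 0.972 in the mutant and 1.07, 1.04 and 0.736 in WT. Lbx1, a homeobox factor needed for their migration, had 1.04, 0.972 and 0.957 in the mutant and 1.15, 1.09 and 0.774 in WT. WT pool 3 was the lowest of the 6 pools for both, and the other WT pools were the highest. That low pool was not particular to these 2 genes. It was the lowest for 7 of the 11 dermomyotome genes and for 32.5% of all genes. For Pax3 it was the highest WT pool (1.02). The log2 differences were 0.08 (SE 0.14) for Met and -0.0009 (SE 0.15) for Lbx1, and without WT pool 3 they were -0.09 and -0.18.

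Further regulators of dermomyotome regions hardly differed on average. En1, a homeobox gene of the central dermomyotome, had a log2 difference of 0.0015 (SE 0.10). Sim1, a marker of the lateral dermomyotome, had 0.03 (SE 0.10) with its 2 probe sets at 0.12 and -0.07. Dmrt2, which acts upstream of Myf5 in the dermomyotome, had -0.0050 (SE 0.11), with ratios between 0.886 and 1.04 in the mutant and between 0.917 and 1.03 in WT.

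The 4 myogenic factors split evenly, 2 higher and 2 lower in the mutant, with a median log2 difference of -0.0006. Myf5, the first of them to appear in the mouse somite, had ratios of 0.566, 0.566 and 0.536 in mutant pools 1, 2 and 3 and 0.559, 0.553 and 0.634 in WT pools 1, 2 and 3. WT pool 3 was the highest, the other 5 pools lay close together, and the log2 difference was -0.06 (SE 0.10). It was -0.0005 without WT pool 3. Myod1, which commits cells to muscle, had 0.952, 0.914 and 1.05 in the mutant and 1.06, 1.09 and 0.752 in WT, a log2 difference of 0.02 (SE 0.15). Here WT pool 3 was the lowest pool, and without it the difference was -0.15.

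Myog, which drives terminal muscle differentiation, had 1.06, 0.955 and 0.891 in the mutant and 1.05, 1.04 and 0.869 in WT. The ranges almost coincided, with a log2 difference of -0.03 (SE 0.12). Myf6, also called Mrf4, had 1.26, 0.950 and 1.01 in the mutant and 1.05, 0.993 and 0.869 in WT, a log2 difference of 0.14 (SE 0.13). Mutant pool 1 alone lay above the WT range, and without it the difference was 0.02. That pool also stood apart in the heart muscle list: its median log2 ratio over 15 genes was 1.62 in mutant pool 1, between -0.05 and 0.0014 in the other mutant pools and between -0.23 and 0.0006 in the WT pools. All 15 heart genes were highest in mutant pool 1. Of the 15, 1 was higher in the mutant without overlap, next to 3.11% of all genes. It was Myh6, with 2.29, 0.705 and 0.703 in the mutant and 0.689, 0.655 and 0.677 in WT. The part of this in the Myf6 value was not tested.

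Of the 10 sclerotome and tendon genes 5 were higher and 5 lower in the mutant, with a median log2 difference of -0.01. Pax1, the paired-box gene that marks the sclerotome, had ratios of 1.07, 0.961 and 0.837 in mutant pools 1, 2 and 3 and 1.08, 1.04 and 0.757 in WT pools 1, 2 and 3. Pax9, its paralogue and partner in vertebral development, had 0.951, 0.923 and 0.899 in the mutant and 0.950, 0.986 and 0.785 in WT. Both had their lowest value in WT pool 3, and the log2 differences were 0.0032 (SE 0.15) for Pax1 and 0.03 (SE 0.11) for Pax9. Nkx3-2, a homeobox gene downstream of Pax1 and Pax9, had 0.947, 1.02 and 1.02 in the mutant and 1.21, 0.980 and 0.962 in WT. WT pool 1 was the highest, and the log2 difference was -0.07 (SE 0.12).

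Col2a1, the main collagen of cartilage and of the notochord sheath, had the largest difference of all members. Its ratios were 1.27, 1.004 and 0.996 in mutant pools 1, 2 and 3 and 1.02, 0.857 and 0.826 in WT pools 1, 2 and 3. Mutant pools 2 and 3 lay just below the highest WT pool, so the genotypes overlapped. The log2 difference was 0.27 (SE 0.13, 95% interval -0.02 to 0.57), larger in size than for 97.7% of genes. Without mutant pool 1, the pool with high heart muscle genes, it was 0.16, and its range over the sets of 5 pools was 0.16 to 0.37.

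The Sox genes that act with Sox9 on cartilage did not move as a set. Sox5 had 1.04, 1.10 and 1.03 in the mutant and 1.11, 0.964 and 0.899 in WT, a log2 difference of 0.10 (SE 0.11). Its 4 probe sets disagreed, with 0.30 for 1423500_a_at, 0.13 for 1432189_a_at, 0.05 for 1452511_at and -0.08 for 1432190_at. The first of these had 0.991, 1.396 and 1.166 in the mutant and 1.009, 0.907 and 0.944 in WT, so mutant pools 2 and 3 were above all WT pools there. Sox6 had 0.894, 1.02 and 0.912 in the mutant and 0.997, 0.948 and 1.13 in WT, a log2 difference of -0.12 (SE 0.11) that was -0.05 without WT pool 3.

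The forkhead genes Foxc1 and Foxc2, jointly required for somite formation and expressed in presomitic mesoderm as well as sclerotome, had differences close to 0. Foxc1 had 0.979, 1.02 and 1.11 in the mutant and 0.891, 0.972 and 1.35 in WT, a log2 difference of -0.03 (SE 0.15) that was 0.15 without WT pool 3. Foxc2 had 0.998, 1.01 and 0.757 in the mutant and 0.761, 1.09 and 1.002 in WT, a log2 difference of -0.04 (SE 0.16). Over the sets of 5 pools it ran from -0.19 without WT pool 1 to 0.09 without mutant pool 3. WT pool 1 was low for both genes, mutant pool 3 was low for Foxc2 alone, and neither gene kept its sign in all sets of 5 pools. Scx, which marks tendon progenitors, had 0.847, 0.961 and 0.941 in the mutant and 0.984, 0.991 and 0.893 in WT. The log2 difference was -0.06 (SE 0.10), from 1 probe set with a median below 1.

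Of the 7 remaining mesenchymal factors 3 were higher and 4 lower in the mutant, with a median log2 difference of -0.04. Twist1, a basic helix-loop-helix factor that keeps mesenchyme undifferentiated and can block myogenic factors, had ratios of 0.954, 1.34 and 1.11 in mutant pools 1, 2 and 3. In WT pools 1, 2 and 3 it had 0.826, 1.05 and 0.940. Mutant pools 2 and 3 lay above all WT pools and mutant pool 1 inside their range. The log2 difference was 0.27 (SE 0.14, 95% interval -0.05 to 0.59), and 0.14 without mutant pool 2. Twist2, its paralogue in dermal and limb mesenchyme, had 0.845, 1.12 and 1.14 in the mutant and 0.842, 0.966 and 1.03 in WT. The order of its pools followed that of Twist1 in part, with the same high mutant pools, and the log2 difference was 0.12 (SE 0.14).

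Foxd1, known from kidney stroma, had 0.976, 0.923 and 1.10 in the mutant and 0.909, 1.02 and 1.47 in WT. Tcf21, a factor of visceral and lateral mesenchyme, had 1.02, 0.984 and 1.02 in the mutant and 0.782, 0.964 and 1.54 in WT. In both, WT pool 3 was the highest and WT pool 1 the lowest of the 6. The log2 difference was -0.15 (SE 0.17) for Foxd1 and -0.06 (SE 0.21) for Tcf21. Without WT pool 3 they turned to 0.05 and 0.21, so the sign of both rested on that pool.

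Snai2, a repressor of E-cadherin in migrating mesenchyme and neural crest, had 1.03, 0.851 and 0.984 in the mutant and 0.862, 1.02 and 1.24 in WT, a log2 difference of -0.11 (SE 0.14) that was 0.03 without WT pool 3. Snai1, the related repressor that oscillates in the presomitic mesoderm, had a log2 difference of -0.04 (SE 0.11), with overlapping pools. Six2, known from nephron progenitors and head and limb mesenchyme, had 1.06, 1.07 and 0.851 in the mutant and 0.954, 1.05 and 0.811 in WT, with a low pool 3 in both genotypes and a log2 difference of 0.09 (SE 0.13).

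**Figure D2:**
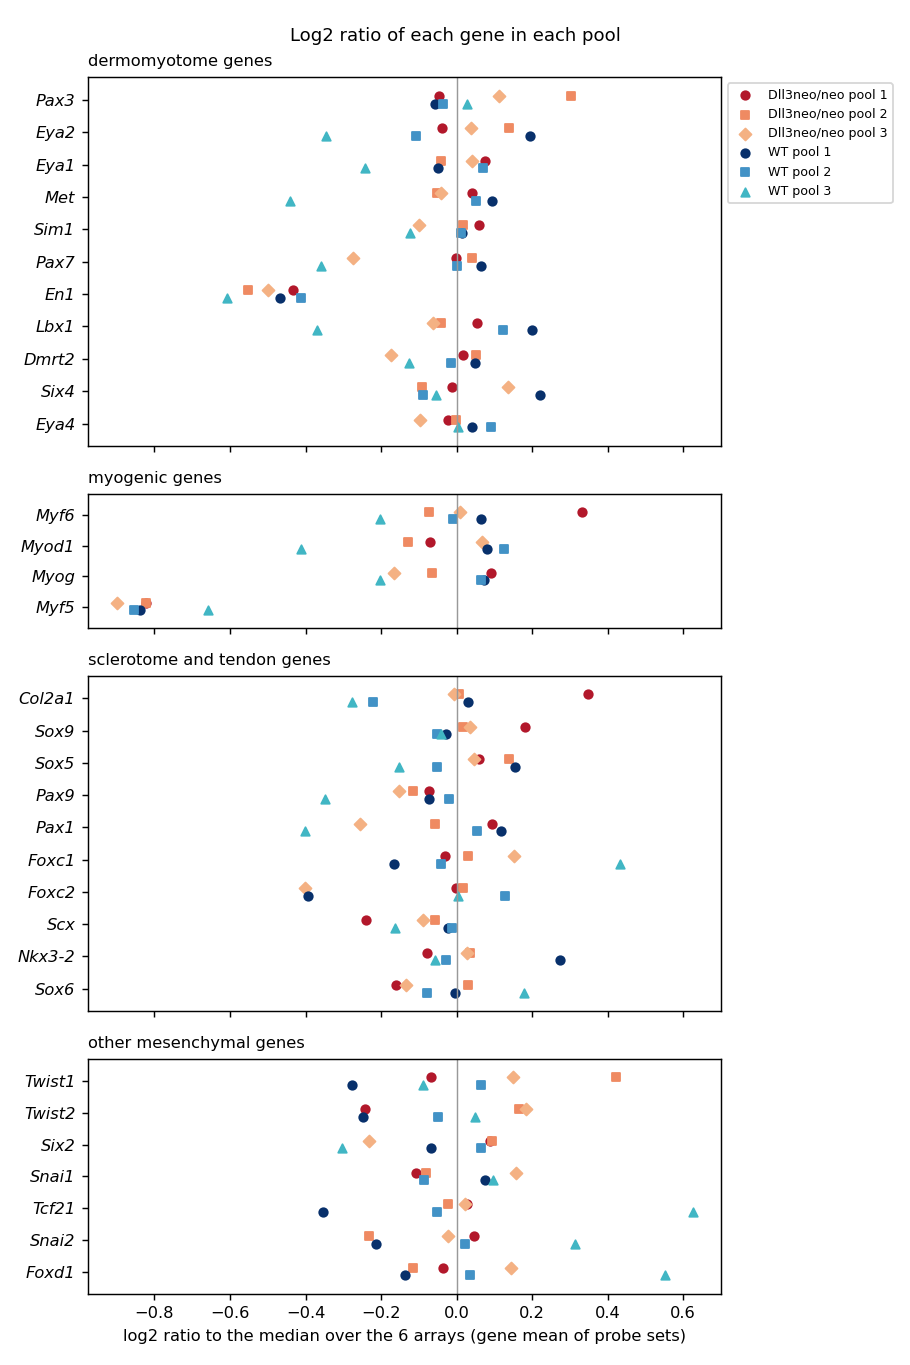
Log2 ratio of each of the 32 genes (mean of its probe sets; horizontal axis) in the 3 Dll3neo/neo pools (red tones, upper row of each gene) and the 3 WT pools (blue tones, lower row). Myf5, En1 and Scx, whose only probe sets have medians below 1, sit left of 0 in all pools, as does Pax9. WT pool 3 (triangles) is the leftmost point for 15 genes and the rightmost for 6.

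The members varied more among the WT pools than among the mutant pools. The median SD over a genotype's pools was 0.10 on the log2 scale in the mutant and 0.17 in WT for the members, next to 0.11 in the mutant and 0.15 in WT for all genes. WT pool 3 held much of this spread. It was the lowest of the 6 pools for 15 of 32 members, or 46.9%, next to 32.5% of all genes, and the highest for 6, or 18.75%, next to 34.4% of all genes. For the 25 dermomyotome, myogenic and sclerotome genes it was the lowest pool in 14 and the highest in 3. For the 7 other mesenchymal genes it was the lowest in 1 and the highest in 3, and there WT pool 1 was the lowest in 4. By probe set, WT pool 3 was lowest for 24.0% of those with a median below 1 and for 29.7% of the rest.

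**Figure D3:**
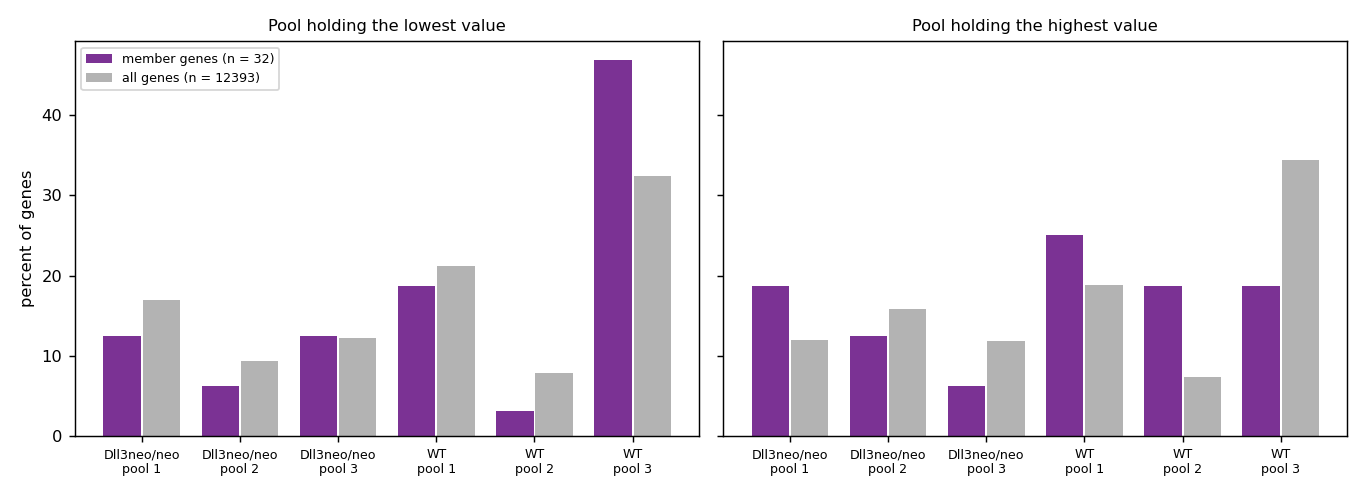
Percent of genes for which each pool held the lowest (left) or the highest (right) of the 6 values, for the 32 member genes (purple) and all 12393 genes (grey); Dll3neo/neo pools stand left of WT pools. WT pool 3 held the lowest value for 46.9% of members and 32.5% of all genes.

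The pool medians of the groups show the same pattern. For the dermomyotome genes the median log2 ratio was -0.0014, -0.0029 and -0.06 in mutant pools 1, 2 and 3 and 0.05, 0.0014 and -0.24 in WT pools 1, 2 and 3. For the myogenic factors it was 0.0099, -0.10 and -0.08 in the mutant and 0.07, 0.03 and -0.31 in WT. For the sclerotome and tendon genes it was -0.02, 0.02 and -0.05 in the mutant and -0.01, -0.04 and -0.10 in WT. In each of these groups the lowest pool was WT pool 3, so the mutant pools lay inside the range of the WT ones for the dermomyotome and myogenic genes. The other mesenchymal genes had -0.04, -0.02 and 0.14 in the mutant and -0.21, 0.02 and 0.10 in WT. Across all genes the pool medians stayed between -0.03 and 0.01.

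The direction of the group medians changed with the pools used. Without WT pool 3 the median log2 difference was -0.05 for the dermomyotome genes, with 3 of 11 higher in the mutant, against 0.10 and 10 of 11 without WT pool 1; it was also below 0 without mutant pool 1 (-0.0078). It was -0.06 for the myogenic factors without WT pool 3, with 1 of 4 higher, against 0.06 and 3 of 4 without WT pool 1. For the sclerotome and tendon genes it was -0.02 without WT pool 3 and 0.05 without WT pool 1. No direction is given here to any of these groups.

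Genes linked to the same tissues were described from further lists, and 0 of their members passed the test over all genes. Of 12 early somite genes 9 were higher in the mutant, with a median log2 difference of 0.11. Meox1, a homeobox gene of the somite, had 1.21, 1.30 and 0.931 in the mutant and 0.729, 1.07 and 0.906 in WT (0.35). Uncx, which marks the posterior part of each somite, had 0.984, 1.12 and 1.11 in the mutant and 0.716, 1.02 and 0.808 in WT (0.35). Mef2c is a cofactor of the myogenic factors that is also expressed in heart and endothelium. It had 1.23, 1.09 and 0.963 in the mutant and 0.894, 0.945 and 0.953 in WT (0.23). It was the 1 gene of 12 higher in the mutant without overlap, next to 3.11% of all genes. The pool medians of this list overlapped between genotypes, at -0.0023, 0.12 and -0.06 in the mutant and -0.10, 0.03 and -0.15 in WT.

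Of 19 genes of skeletal muscle differentiation 17, or 89.5%, were higher in the mutant, next to 51.1% of all genes. The median log2 difference was 0.05. The pool medians overlapped between genotypes, at 0.15, 0.03 and -0.06 in the mutant and 0.04, 0.0072 and -0.21 in WT. Mutant pool 1 was the highest pool for 9 of the 19 genes and WT pool 3 the lowest for 9. The largest values came from genes shared with heart muscle. Actc1, the cardiac actin that embryonic skeletal muscle also makes, had 9.93, 0.994 and 1.04 in the mutant and 0.628, 1.01 and 0.862 in WT. Tnni1, the slow skeletal troponin I of embryonic heart, had 4.62, 1.18 and 1.0 in the mutant and 0.943, 1.0 and 0.699 in WT. Both were far above the rest in mutant pool 1 alone, where the heart genes Myl7 (ratio 19.5) and Tnnt2 (ratio 16.4) were high as well. In 12 of the 19 genes the difference was under 0.1 in size. The skeletal myosin gene Myh8 (log2 difference 0.09) was the 1 gene of 19 higher in the mutant without overlap, next to 3.11% of all genes.

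Of 13 cartilage matrix genes 8 were higher in the mutant, with a median of 0.03. Comp, a matrix protein of cartilage and tendon, had 1.02, 1.05 and 1.03 in the mutant and 0.767, 0.983 and 0.897 in WT (log2 difference 0.24). It was the 1 gene of 13 higher in the mutant without overlap, next to 3.11% of all genes. Cnmd, which encodes the cartilage protein chondromodulin, had a log2 difference of 0.17 with overlapping pools. Of 20 genes of Hedgehog and other patterning signals, which induce the sclerotome and dermomyotome, 12 were higher and the median was 0.03. The largest differences were 0.18 for Wnt1, a dorsal neural tube signal, and 0.16 for Gas1, a Hedgehog co-receptor, both with overlap.

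Presomitic mesoderm genes were mostly lower in the mutant by sign, and WT pool 3 stood at their high end. Of 11 measured genes 1 was higher and 10 lower in the mutant, with a median log2 difference of -0.20. The pool medians were -0.12, -0.17 and 0.02 in mutant pools 1, 2 and 3 and 0.12, 0.0095 and 0.25 in WT pools 1, 2 and 3. WT pool 3 was thus highest for presomitic genes and lowest for the dermomyotome and myogenic ones. It was also the lowest for heart muscle (-0.23), skeletal muscle differentiation (-0.21), early somite (-0.15) and cartilage matrix (-0.12) genes. For neural tube genes it was the highest (0.06), and for Hedgehog and other patterning signals (0.015) it was neither. Mutant pool 3 leaned the same way in several lists. Of the mutant pools it was the highest for presomitic genes (0.02) and the lowest for dermomyotome (-0.06) and sclerotome and tendon (-0.05) genes. It was also the lowest mutant pool for early somite (-0.06), skeletal muscle differentiation (-0.06), heart muscle (-0.05) and cartilage matrix (-0.02) genes. For the myogenic factors mutant pool 2 was lower (-0.10), and for neural tube genes mutant pool 3 was the lowest (-0.02). The presomitic genes without overlap were Hes7 (-0.43), Tbx6 (-0.39) and Lfng (-0.27), each lower in the mutant. They are 3 of 11 genes, where 1.84% of all genes were lower without overlap. The list was chosen with earlier results of these data known, so these shares describe it and test nothing. Cyp26a1, which degrades retinoic acid and was picked after its value was seen, had -0.39 with overlap. The part of this pool difference in the somite gene values was not tested.

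**Figure D4:**
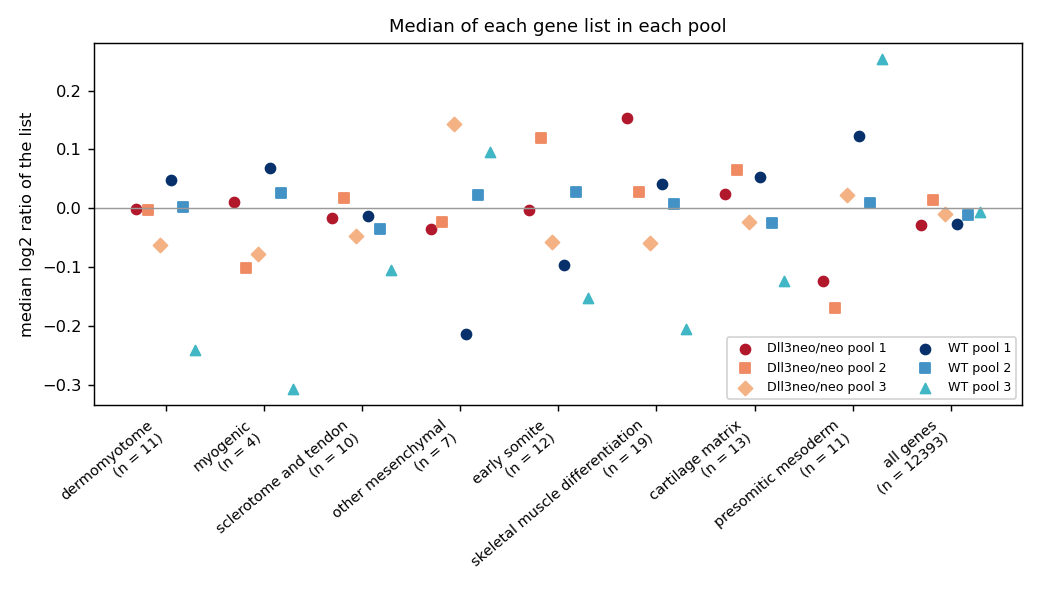
Median log2 ratio (vertical axis) of each gene list in the 3 Dll3neo/neo pools (red tones, left) and the 3 WT pools (blue tones, right), with the number of genes measured. WT pool 3 (triangles) is the lowest pool for the dermomyotome (-0.24) and myogenic (-0.31) genes and the highest for presomitic mesoderm genes (0.25). It is also the lowest for the sclerotome and tendon, early somite, skeletal muscle differentiation and cartilage matrix lists.

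Many of the members are also made in other cells of the dissected piece, so lists for those cells were set beside them. Neural tube genes, which bear on Pax3, Pax7, En1, Lbx1, Sim1 and Sox9, were higher in 6 of 13, with a median log2 difference of -0.0018. Their pool medians ran from -0.02 to 0.03 in the mutant and from -0.06 to 0.06 in WT. Zic1 (0.32) and Olig2 (0.15), 2 of 13 genes, were higher in the mutant without overlap, next to 3.11% of all genes. Tubb3 had 0.24 with overlap. Neural crest genes, which bear on Sox9, Twist1 and Snai2, were higher in 8 of 8 by small amounts, with a median of 0.08, the largest being Ets1 (0.15) and Sox10 (0.12). Their pool medians ran from -0.03 to 0.03 in the mutant and from -0.14 to 0.03 in WT, with WT pool 3 the lowest.

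Intermediate mesoderm genes, which bear on Six2, Eya1, Foxd1 and Tcf21, were higher in 5 of 7, with a median of 0.07 and the largest values for Wt1 (0.27) and Gdnf (0.25). Their pool medians ran from -0.02 to 0.08 in the mutant and from -0.20 to 0.02 in WT. Lateral plate and limb genes, which bear on Twist1, Twist2 and Tcf21, were higher in 6 of 10, with a median of 0.06 and the largest values for Pitx1 (0.26) and Tbx4 (0.15). Their pool medians ran from -0.02 to 0.10 in the mutant and from -0.11 to 0.06 in WT. WT pool 3 was the lowest pool in these lists too, and how far such cells shaped the members' values was not tested.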

How the data were processed

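RNA of 3 Dll3neo/neo and 3 WT pools was hybridised to 1 array each. The authors deposited linear ratios. The values show that a probe set's signals were scaled to their median across arrays (1 within a tolerance of 0.0011), or to a floor. Per the submitters' processing notes RMA and MAS5 were involved, with no role stated, so background correction and normalization stay unknown, and the depth of measurement cannot be judged beyond the number of arrays. Log2 of the ratio was taken without offset. After 64 control probe sets were left out, 20380 of 22626 had 1 gene symbol, 691 had several and 1555 had none; symbols are those of the platform annotation. Probe sets were averaged per gene, and limma 3.58.1 in R 4.3.3 compared genotypes over 12393 genes (two-sided, Benjamini-Hochberg, threshold 0.05). With 3 against 3 pools an exact permutation test cannot go below 0.1. The test was run on simulated data first. All members are named. Of each other list, the 2 genes with the largest differences and those without overlap are named, up to 4, with Cyp26a1 added outside this rule. Members and lists were chosen with earlier results of these data known. Same-numbered pools deviated together for numbers 1 and 3 but not for 2, so pools were not treated as paired in the main fit. Alternatives were the scaling, an offset of 1, a filter on medians below 1, 1 probe set per gene, variance models, array weights (gene-by-gene, since the REML estimate did not converge), a replicate block and leaving out each pool. Plots used matplotlib 3.10.9 in Python 3.11.15.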

Additional observations from a re-analysis of the deposited data

How the results depend on the processing

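The number of members called was 0 in the fit over all genes and under every alternative run, including the fit on probe sets, with the lowest adjusted p of a member at 0.4653 under array weights. The number of genes called over the whole array was 1 (Dll3) and became 2 with each array centred on its median, with quantile normalization, with probe sets of a median below 1 left out and with a variance trend, Hnrnpl being the second gene each time, and 4 with array weights (Dll3, Hnrnpl, Bcat2 and Nrarp). It was between 1 and 2 when 1 pool was left out, the 2 being Dll3 and Hnrnpl without WT pool 3. The median log2 difference of the sclerotome and tendon genes lay between -0.0218 and 0.0744 over the sets of 5 pools, that of the dermomyotome genes between -0.05 and 0.10, that of the myogenic factors between -0.06 and 0.07, and that of the other mesenchymal genes between -0.10 and 0.05. These spans include 0, and the cause was not tested beyond the pool left out. Members changed sign in 15 of 32 cases with array weights, which gave WT pool 2 a weight of 6.62 and WT pool 3 one of 0.203, and in 13 without WT pool 3. The member signs split as 17 higher and 15 lower as reported, 15 and 17 after quantile normalization and 15 and 17 after centring on the median, 20 and 12 with the probe set of largest SD per gene, and 14 and 18 with array weights. Over the sets of 5 pools it ran from 14 and 18 without WT pool 3 to 22 and 10 without WT pool 1. The replicate block left every difference and the count of calls (1 gene, 0 members) as they were. It put 252 genes and 2 members at an unadjusted p under 0.05. Same-numbered pools correlated by 0.187, -0.0015 and 0.207 in their deviations from the genotype means. Different-numbered pools correlated by between -0.203 and 0.122. A shared effect of the pool number was not tested further. Genes at an unadjusted p under 0.05 numbered 159 as reported, 1086 with array weights, and between 84 and 440 when 1 pool was left out. The absolute level behind each ratio is unknown, so dim probe sets could not be set apart by brightness.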
